A study of Mus musculus with 11 samples.

Results

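The genes described here encode the aminoacyl-tRNA synthetases of the mouse. A list of 36 genes was used, 20 for enzymes of the cytosol and 16 for enzymes of mitochondria, whose names end in 2. A probe belonged to the set if its platform gene symbol was one of these names, or the name with a trailing 1 (Mars1 for Mars). The array held 54 such probes for 33 of the 36 genes, out of 25697 probes in all. They were 34 probes for 19 cytosolic genes and 20 probes for 14 mitochondrial genes, and 13 genes had more than 1 probe. Cars2, Dars and Tars2 were not analysed here.

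Total RNA was measured in HL-1 cells on Illumina MouseRef-8 bead arrays, 11 in number. HL-1 is an established line of beating cardiac muscle cells from adult mouse heart, so every group is 1 line in culture and not heart tissue. The cells were given TGF-β2 at 10 ng/mL (4 arrays), PDGF-BB at 100 ng/mL (3 arrays) or no growth factor (control, 4 arrays), and each group spent 23 h in serum-free medium, the control included. TGF-β2 and PDGF-BB are growth factors that signal through a serine/threonine kinase receptor and a tyrosine kinase receptor, and the comparisons ask what each did to the RNA of these cells. A further PDGF-BB cell sample, which the study describes as an outlier, was not analysed here.

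Most aminoacyl-tRNA synthetases join 1 kind of amino acid to its tRNAs. Without this charged tRNA the ribosome cannot add that amino acid to a protein. In mammals the cytosol and the mitochondrion mostly use separate enzymes, both encoded in the nucleus, and several of the cytosolic enzymes are held together in the multi-synthetase complex by the scaffold proteins AIMP1, AIMP2 and EEF1E1. Many cytosolic synthetase genes are known targets of ATF4, the transcription factor that acts when amino acids run short or when proteins misfold in the endoplasmic reticulum. It binds C/EBP-ATF response elements.

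To show what lies upstream of these genes, 250 bases before the annotated start were read from RefSeq (GRCm38.p6), which listed such a window for 24 of the 36 genes. On either strand, the C/EBP-ATF response element TGATGNAA was found in 3 of the 24, all among the 12 cytosolic genes with a window, and in 3.45% of 32851 mouse promoters. The E-box CACGTG, which MYC and related factors bind, was found in Farsb, Aars and Iars, and in 6.02% of the promoters. A match is a string of letters and does not show that a factor was bound.

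The 3 windows with a response element are printed 5′ to 3′ with the motifs in capitals, because they belong to Gars, Aars and Tars, for glycyl-, alanyl- and threonyl-tRNA synthetase. The first base of the element lay 30 bases before the start in Gars, 112 in Aars and 15 in Tars, in each case with TGATGNAA on the strand opposite to the one printed. In Aars the window also held the E-box, 146 bases before the start.
Gars (chr6:55037751-55038000, plus strand): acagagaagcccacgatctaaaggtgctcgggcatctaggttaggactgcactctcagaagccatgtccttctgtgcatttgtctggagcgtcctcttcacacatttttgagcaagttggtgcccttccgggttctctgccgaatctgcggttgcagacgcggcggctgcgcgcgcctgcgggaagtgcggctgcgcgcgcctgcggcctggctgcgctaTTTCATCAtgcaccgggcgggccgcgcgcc
Aars (chr8:111033592-111033841, plus strand): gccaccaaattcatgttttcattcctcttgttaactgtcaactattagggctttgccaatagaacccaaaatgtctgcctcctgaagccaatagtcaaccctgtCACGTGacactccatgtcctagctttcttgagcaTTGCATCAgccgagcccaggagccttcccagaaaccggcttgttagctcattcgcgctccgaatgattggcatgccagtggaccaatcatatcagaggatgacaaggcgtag
Tars (chr15:11399659-11399908, minus strand): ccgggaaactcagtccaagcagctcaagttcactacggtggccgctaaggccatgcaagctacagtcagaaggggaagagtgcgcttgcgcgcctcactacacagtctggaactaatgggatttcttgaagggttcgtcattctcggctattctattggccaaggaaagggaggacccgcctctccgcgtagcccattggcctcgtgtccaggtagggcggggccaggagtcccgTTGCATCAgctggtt

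The windows of Eprs, Farsa and Wars2 are printed next, because these 3 genes stood furthest above PDGF-BB in the TGF-β2 arrays. Neither motif was in them, so they have no capitals.
Eprs (chr1:185362794-185363043, plus strand): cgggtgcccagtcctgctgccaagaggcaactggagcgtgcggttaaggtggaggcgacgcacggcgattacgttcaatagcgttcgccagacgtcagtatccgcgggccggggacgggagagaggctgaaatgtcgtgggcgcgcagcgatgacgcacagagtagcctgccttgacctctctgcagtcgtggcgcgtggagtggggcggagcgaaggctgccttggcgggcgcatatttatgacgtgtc
Farsa (chr8:84856736-84856985, plus strand): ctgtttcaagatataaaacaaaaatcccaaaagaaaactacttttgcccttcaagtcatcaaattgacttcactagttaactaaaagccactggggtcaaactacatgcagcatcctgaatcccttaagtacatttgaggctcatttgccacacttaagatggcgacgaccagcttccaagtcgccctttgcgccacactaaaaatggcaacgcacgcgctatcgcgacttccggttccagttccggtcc
Wars2 (chr3:99140840-99141089, plus strand): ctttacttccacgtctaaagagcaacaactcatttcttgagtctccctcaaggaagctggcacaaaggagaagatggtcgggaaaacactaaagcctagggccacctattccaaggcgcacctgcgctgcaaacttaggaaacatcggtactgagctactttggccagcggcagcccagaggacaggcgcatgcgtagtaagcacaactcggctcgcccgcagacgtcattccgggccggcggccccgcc

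Most synthetase genes were measured in every culture. A probe was called detected if its detection p-value, set by the array's negative control beads, was under 0.05. Of the 54 probes, 36 for 24 genes were detected on all 11 arrays, and the same number also passed the signal of 30 that was asked of cell samples. Over the whole array, 38.7% of probes were detected on all 11. The 15 cytosolic genes among the 24 included Gars, Aars, Qars (glutamine) and Rars (arginine), and the 9 mitochondrial ones included Lars2 (leucine), Ears2 (glutamate) and Vars2 (valine).

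The remaining genes lay near or under background. Hars, for cytosolic histidyl-tRNA synthetase, was detected on 8 arrays, and Farsa, for the alpha subunit of phenylalanyl-tRNA synthetase, on 6. Of the mitochondrial genes, Aars2 (alanine) was detected on 10 arrays and Wars2 (tryptophan) on 7. Yars was detected on 1 array, and Cars, Hars2, Nars2 and Yars2 on 0. The last 5 were not tested, since a probe had to be detected on at least 3 arrays. That left 45 probes for 28 genes, 30 probes for 17 cytosolic and 15 probes for 11 mitochondrial genes, among 12894 probes tested.

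Of the cardiomyocyte marker genes with a probe, 10 of 11 were detected on all 11 arrays, against 1 of 10 fibroblast, 1 of 8 endothelial, 0 of 6 leukocyte and 5 of 7 smooth muscle marker genes. Among the fibroblast and endothelial markers, Col1a1, Col1a2, Cdh5 and Vwf were detected on 0 arrays. Ddr2 (fibroblast) and Egfl7 (endothelial) were detected on all 11, and Pecam1 and Kdr (endothelial) on 6 each. Of the leukocyte markers Cd3e was detected on 10 arrays, Ptprc and Cd14 on 2 each, and 3 others on 0. The mean signal of an array lay between 451 and 846 before normalization, and 11401 to 12455 probes were detected. The arrays sat on 2 chips. Chip 1 held TGF-β2 arrays 1 and 2, PDGF-BB array 1 and control arrays 1 and 2, and chip 2 held the other 6. Every value below for PDGF-BB within chip 1 therefore rests on 1 PDGF-BB array, the one with the mean signal of 451. Since the RNA was taken from whole cultures, fewer cells that carry a transcript and less of it in each cell cannot be told apart. By the study's methods each array came from a culture flask of its own, so the p-values measure the spread between flasks of 1 cell line.

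All values below are log2 signals after background correction and quantile normalization. They can be compared between arrays for 1 probe, not between probes. Where a gene had several tested probes, the one of highest mean signal stands for it. No synthetase probe passed an adjusted p of 0.05 in any of the 3 comparisons (limma, Benjamini-Hochberg over all 12894 probes), and no probe of the array did.

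In TGF-β2-treated cells the cytosolic synthetase genes lay close to the control. Of 17 genes, 4 had a mean above the control and 13 below, and the median of their log2 fold changes was −0.050, and of all tested probes 49.2% lay above with a median of −0.0028. The mitochondrial genes were split 5 above and 6 below, with a median of −0.020. The 4 cytosolic genes above were Farsa, Eprs, Vars and Sars. Of the 45 probes 0 were called, as were 0% of all tested probes. At an unadjusted p under 0.05 there was 1 probe higher and 0 lower, or 2.22% of the 45, against 2.02% of all tested probes. In 0 probes did the TGF-β2 arrays lie wholly above or wholly below the control arrays, against 0.682% of all tested probes that lay wholly above and 0.698% wholly below.

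The probe with the low unadjusted p was that of Farsa, which measured 6.47, 6.37, 5.96 and 6.0 on the TGF-β2 arrays, 5.15, 5.49 and 5.0 on the PDGF-BB arrays and 5.79, 5.03, 6.24 and 5.28 on the control arrays. Control array 3 lay among the TGF-β2 arrays and the other control arrays lay below them. The log2 fold change was 0.61 (95% interval 0.09 to 1.14, adjusted p = 1.0, limma). It was 1.01 within chip 1 and 0.22 within chip 2, and the probe was detected on 4 of 4 TGF-β2 arrays and 2 of 4 control arrays. On the PDGF-BB arrays it was detected on 0 of 3. It thus reached the 3 arrays needed for testing only through the TGF-β2 group, where it is high. Its low unadjusted p is therefore no support for a difference. Farsb, for the beta subunit of the same enzyme, had means of 11.58 ± 0.32 with TGF-β2 and 11.65 ± 0.06 in the control (SD, n = 4 each), a log2 fold change of −0.07.

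Eprs encodes the bifunctional enzyme for glutamate and proline, a member of the multi-synthetase complex. It measured 9.32, 9.56, 10.10 and 9.0 on the TGF-β2 arrays, 8.69, 8.65 and 8.86 on the PDGF-BB arrays and 9.28, 8.67, 9.58 and 8.79 on the control arrays. The TGF-β2 and control arrays overlapped, and array 3 was the highest in each of the 2 groups. TGF-β2 over control gave 0.42 (−0.11 to 0.94, adjusted p = 1.0, limma), with 0.47 in chip 1 and 0.36 in chip 2. Iars, for isoleucyl-tRNA synthetase of the same complex, measured 10.28, 10.00, 10.56 and 10.43 on the TGF-β2 arrays and 10.71, 10.51, 10.39 and 10.37 on the control arrays. TGF-β2 arrays 1 and 2 lay below all control arrays and TGF-β2 arrays 3 and 4 lay among them. The fold change was −0.17 (−0.52 to 0.17, adjusted p = 1.0, limma), −0.47 within chip 1 and 0.12 within chip 2.

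Among the mitochondrial genes, Wars2 had 6.66, 6.71, 6.28 and 6.42 on the TGF-β2 arrays, 5.27, 5.64 and 5.85 on the PDGF-BB arrays and 6.52, 5.73, 6.44 and 5.50 on the control arrays. Control arrays 1 and 3 lay among the TGF-β2 arrays, and control arrays 2 and 4 lay below. The fold change was 0.47 (−0.03 to 0.97, adjusted p = 1.0, limma), 0.56 within chip 1 and 0.38 within chip 2. Iars2, for the mitochondrial isoleucine enzyme, had 9.28, 9.31, 9.17 and 9.23 on the TGF-β2 arrays, 9.48, 9.14 and 9.24 on the PDGF-BB arrays and 9.02, 9.18, 9.06 and 9.03 on the control arrays. TGF-β2 array 3 stood just under control array 2, and the difference of means was 0.18 (−0.09 to 0.44, adjusted p = 1.0, limma). Pars2, for the mitochondrial proline enzyme, had 6.44, 6.67, 7.27 and 7.02 on the TGF-β2 arrays, 6.47, 7.60 and 7.12 on the PDGF-BB arrays and 6.90, 7.20, 7.01 and 7.49 on the control arrays, and the groups overlapped. Its fold change was −0.30 with TGF-β2 (−0.83 to 0.23, adjusted p = 1.0, limma), and its other tested probe gave −0.39.

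TGF-β2 and control arrays of the same number deviated together, so their differences were also taken within the 4 pairs. For Eprs the TGF-β2 array was the higher one in 4 of 4 pairs, by 0.037, 0.90, 0.51 and 0.21, and Iars2 in 4 of 4, by 0.26, 0.13, 0.11 and 0.21. These were 2 of the 45 probes, and 6.47% of all tested probes were higher in every pair. The second Eprs probe, Farsa and Wars2 were higher in 3 of 4 pairs. The Sars probe ILMN_2712900 and the second Pars2 probe were lower in every pair, as were 6.76% of all tested probes. With the replicate number as a block 0 synthetase probes were called (limma).

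The median over the 17 cytosolic genes was −0.14 within chip 1, with 4 genes above the control, and 0.056 within chip 2, with 15 above. Without TGF-β2 array 2 it was 0.012, with 9 genes above and 8 below. Without TGF-β2 array 3 it was −0.14.

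**Figure D1:**
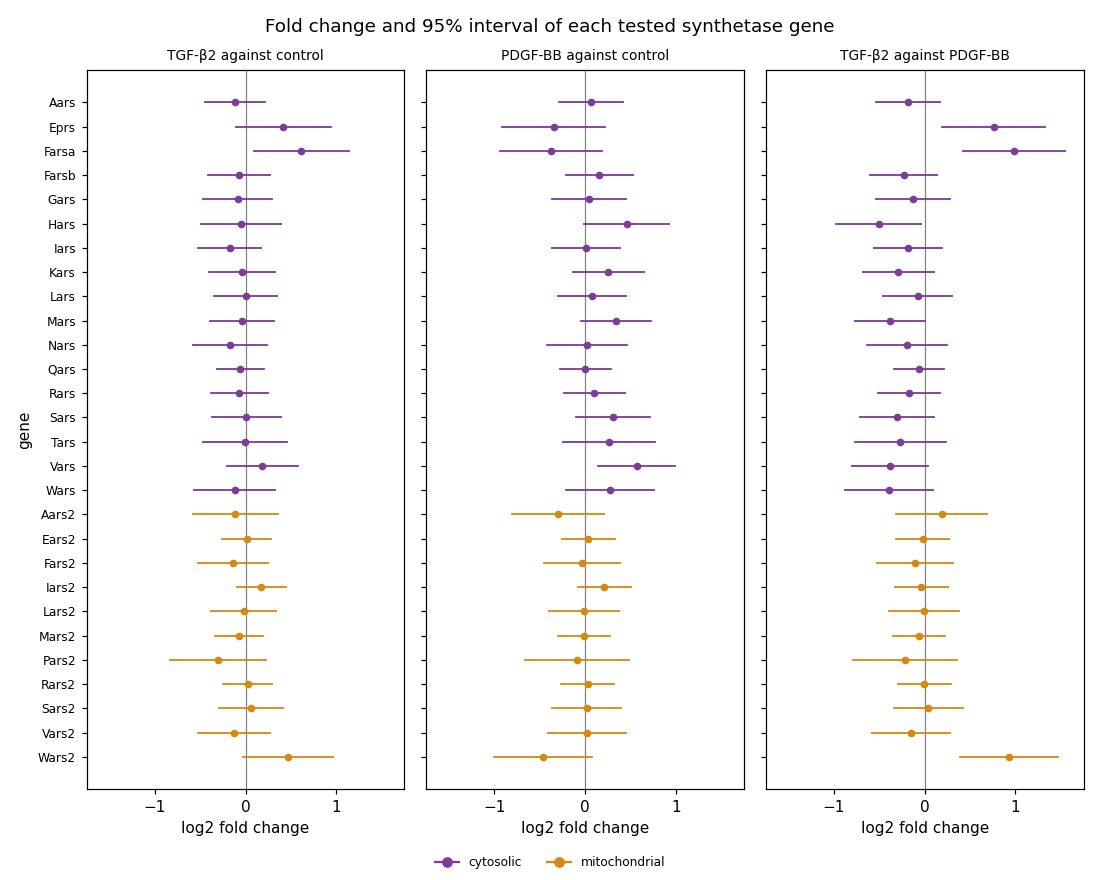
Log2 fold change (point) and 95% interval (line) of each of the 28 tested synthetase genes, by comparison, with cytosolic genes in purple above mitochondrial genes in orange. With PDGF-BB against control 15 of 17 cytosolic points lie right of 0, and Eprs, Farsa and Wars2 are the points furthest right in TGF-β2 against PDGF-BB.

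In PDGF-BB-treated cells more cytosolic synthetase genes lay above the control than below it. Of 17 genes 15 had a higher mean and 2, Eprs and Farsa, a lower one. The median of their log2 fold changes was 0.10, against 52.2% of all tested probes above and a median of 0.011. The mitochondrial genes were split 5 above and 6 below, with a median of −0.011. When each array was scaled to its median instead of quantile-normalized, 9 cytosolic genes lay above and 8 below, and 1 mitochondrial gene above and 10 below. All tested probes then had a median of −0.091 and the cytosolic genes lay 0.10 above that. With the chip as a block the cytosolic genes had 12 above and 5 below (median 0.087), and with the position on the chip as a block 11 above and 6 below (median 0.071).

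Again 0 of the 45 probes were called, and 0% of all tested probes. At an unadjusted p under 0.05 there were 2 probes higher and 0 lower, 4.44% of the 45 against 3.2% of all tested probes. In 5 probes, 11.1% of the 45, the PDGF-BB arrays lay wholly above the control arrays, against 1.95% of all tested probes. They belonged to Vars, Mars, Farsb, Tars and Wars, all cytosolic. In 0 probes did they lie wholly below, against 1.7% of all tested probes.

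Vars encodes cytosolic valyl-tRNA synthetase. Its probe measured 11.26, 10.70 and 10.98 on the PDGF-BB arrays, 10.82, 10.47, 10.35 and 10.76 on the TGF-β2 arrays and 10.29, 10.70, 10.10 and 10.56 on the control arrays. PDGF-BB array 2 and control array 2 were level to the second decimal, and the other PDGF-BB arrays lay above all control arrays. The log2 fold change was 0.57 (0.15 to 0.99, adjusted p = 1.0, limma), 0.77 within chip 1 and 0.51 within chip 2.

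Hars measured 6.77, 6.17 and 5.76 on the PDGF-BB arrays, 5.96, 5.54, 5.74 and 5.66 on the TGF-β2 arrays and 5.76, 5.54, 5.73 and 6.07 on the control arrays. PDGF-BB array 1 was the high one and array 3 lay within the control range. The fold change was 0.46 (−0.01 to 0.93, adjusted p = 1.0, limma), 1.12 within chip 1 and 0.067 within chip 2. Mars, for methionyl-tRNA synthetase, which also charges the tRNA that starts a protein, measured 10.47, 10.29 and 10.33 on the PDGF-BB arrays, 9.98, 9.62, 10.12 and 10.21 on the TGF-β2 arrays and 9.92, 10.14, 9.74 and 10.29 on the control arrays. The PDGF-BB arrays lay close together, at or just above the highest control array. The fold change was 0.35 (−0.04 to 0.73, adjusted p = 1.0, limma), 0.45 within chip 1 and 0.30 within chip 2, and the other Mars probe gave 0.21.

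In the other 3 probes the lowest PDGF-BB array also lay above the highest control array. The Tars probe ILMN_1239799 had 8.54, 8.42 and 8.93 on the PDGF-BB arrays and 8.41, 8.11, 8.15 and 8.41 on the control arrays, and the Farsb probe ILMN_2860196 had 11.84, 11.74 and 11.85 against 11.60, 11.61, 11.66 and 11.73. Wars, for the cytosolic tryptophan enzyme, which interferon-gamma is known to induce, had 7.32, 6.76 and 7.13 on the PDGF-BB arrays and 6.65, 6.54, 6.65 and 6.38 on the control arrays with probe ILMN_3077377. Its fold change was 0.51 (0.10 to 0.93, adjusted p = 1.0, limma). The gap between the lowest PDGF-BB and the highest control array was smaller than the range of the PDGF-BB arrays, of which array 2 was the lowest in each of these 3 probes.

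Of the genes with a response element upstream, Tars had a fold change of 0.26, Aars of 0.07 and Gars of 0.04 with PDGF-BB. With TGF-β2 they had −0.0040, −0.12 and −0.09 in that order. All 6 intervals included 0.

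The mitochondrial genes furthest from the control were Wars2, with −0.46 (−1.0 to 0.08), Iars2, with 0.21 (−0.08 to 0.50), and Aars2, with −0.30 (−0.80 to 0.21), each at an adjusted p of 1.0 (limma). Aars2 measured 5.35, 6.27 and 6.4 on the PDGF-BB arrays, 6.39, 6.25, 6.17 and 5.95 on the TGF-β2 arrays and 6.33, 6.61, 6.16 and 6.12 on the control arrays. PDGF-BB array 1, on which the probe was not detected, was the one low array, and without it the fold change was 0.030. Within chip 2 it was 0.19. Wars2 was detected on 1 of 3 PDGF-BB arrays and 2 of 4 control arrays, and its fold change was −0.86 within chip 1 and −0.22 within chip 2.

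**Figure D2:**
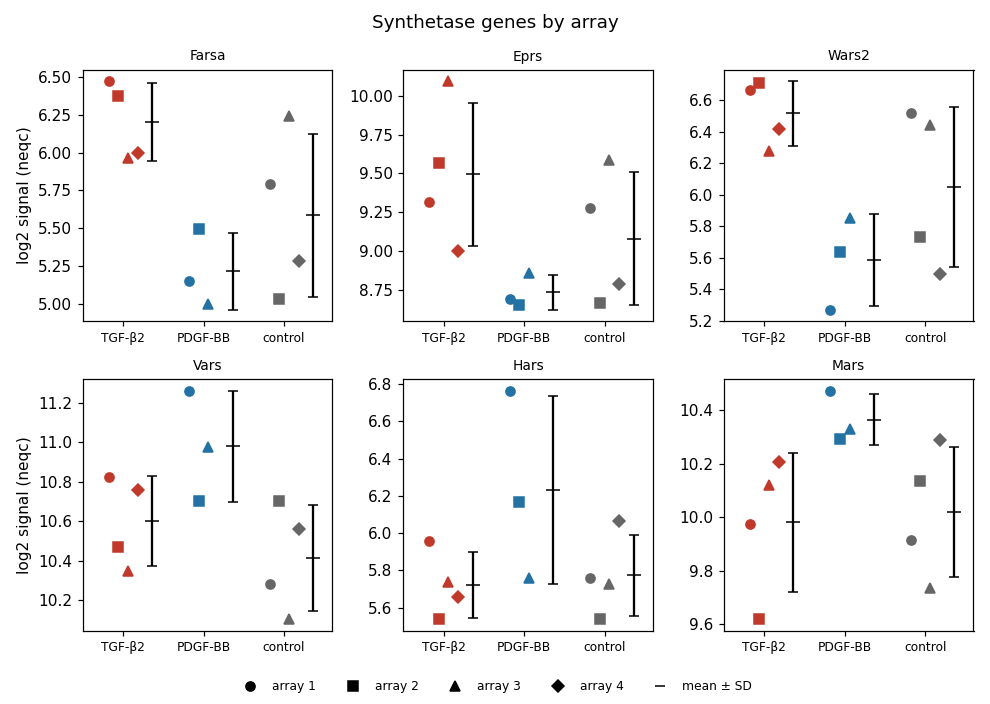
Log2 signal (y axis, a range of its own for each gene) of 6 synthetase genes on every array of TGF-β2-treated, PDGF-BB-treated and control cells, with the mean ± SD of each group beside its arrays. The 4 TGF-β2 arrays lie above the 3 PDGF-BB arrays in Farsa, Eprs and Wars2, and the control arrays spread over both.

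The growth factors were also set against each other. The mean with TGF-β2 lay below that with PDGF-BB in 15 of 17 cytosolic genes and above it in 2, Eprs and Farsa, with a median log2 difference of −0.19. All tested probes had a median of −0.023 with 44.9% above. The mitochondrial genes had 3 above and 8 below, with a median of −0.020, and 7 above and 4 below when arrays were scaled to their medians. This comparison uses the same PDGF-BB and TGF-β2 arrays as the others and so is not a further measurement of them.

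Here too 0 of the 45 probes were called, and 0% of all tested probes. At an unadjusted p under 0.05 there were 4 probes higher and 3 lower with TGF-β2, 15.6% of the 45 against 5.13% of all tested probes. In 4 probes the TGF-β2 arrays lay wholly above the PDGF-BB arrays, against 3.41% of all tested probes, and in 2 wholly below, against 1.71%. The 4 were those of Farsa, Wars2 and Eprs, which has 2 probes. Farsa met the detection rule only through the TGF-β2 arrays, so its place in these counts is no support for a difference. The 2 belonged to Mars and to Sars, for seryl-tRNA synthetase.

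Farsa had means of 6.20 ± 0.26 with TGF-β2 (SD, n = 4) and 5.22 ± 0.25 with PDGF-BB (SD, n = 3), a difference of 0.99 (0.42 to 1.55, adjusted p = 0.755, limma). It was not well above background on any PDGF-BB array. The TGF-β2 mean was 1.39-fold above the lowest detected signal of those arrays, or the probe's own where that was higher. That figure takes no account of the spread between arrays and is not a lower limit of the difference. Farsb, its partner subunit, had a difference of the opposite sign, with 11.58 ± 0.32 under TGF-β2 and 11.81 ± 0.06 under PDGF-BB, or −0.23 (−0.60 to 0.14).

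Wars2 averaged 6.52 ± 0.21 with TGF-β2 and 5.59 ± 0.29 with PDGF-BB, a difference of 0.93 (0.39 to 1.47, adjusted p = 0.755, limma). The probe was detected on 4 of 4 TGF-β2 arrays and on 1 of 3 PDGF-BB arrays, so the PDGF-BB mean lies near background and the size of the difference is uncertain. It was 1.42 within chip 1 and 0.60 within chip 2. Its second tested probe, detected on 3 arrays, gave −0.12 (−0.58 to 0.34), so the probes of this gene gave opposite signs.

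Eprs averaged 9.49 ± 0.46 with TGF-β2 and 8.73 ± 0.11 with PDGF-BB, a difference of 0.76 (0.20 to 1.33, adjusted p = 0.780, limma), 0.75 within chip 1 and 0.79 within chip 2. The second Eprs probe measured 7.53, 7.09, 8.14 and 7.57 on the TGF-β2 arrays, 5.69, 6.96 and 7.04 on the PDGF-BB arrays and 7.82, 6.36, 7.52 and 7.27 on the control arrays. It gave 1.02 (0.20 to 1.84, adjusted p = 0.830, limma), in the same direction as the first. With both probes the control arrays reached from the level of the PDGF-BB arrays into that of the TGF-β2 arrays.

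Hars averaged 5.72 ± 0.18 with TGF-β2 and 6.23 ± 0.51 with PDGF-BB, a difference of −0.51 (−0.98 to −0.04, adjusted p = 0.948, limma), −1.02 within chip 1 and −0.27 within chip 2. The Sars probe ILMN_2712900 had 9.21, 9.17, 9.08 and 9.13 on the TGF-β2 arrays and 9.44, 9.23 and 9.82 on the PDGF-BB arrays, a difference of −0.35 (adjusted p = 0.966, limma). The Wars probe ILMN_3156343 had 7.93, 7.65, 7.63 and 7.80 on the TGF-β2 arrays and 8.55, 7.69 and 8.30 on the PDGF-BB arrays, a difference of −0.43 (adjusted p = 0.966, limma). In both probes PDGF-BB array 2 lay with the TGF-β2 arrays or next to them, and arrays 1 and 3 lay above. Of the other mitochondrial genes, Pars2 differed by −0.21 and Aars2 by 0.19, both with an adjusted p of 1.0 (limma). For Aars2 the difference was −0.14 without PDGF-BB array 1.

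The median over the cytosolic genes in this comparison was −0.40 within chip 1, which held 1 PDGF-BB array, and −0.059 within chip 2. Without TGF-β2 array 2 it was −0.084, and without TGF-β2 array 3 it was −0.30.

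Of the genes, 12 had several tested probes, and the direction of their probes was compared. With TGF-β2 against control 7 had all their probes on 1 side of 0, and 5 were mixed. With PDGF-BB against control the split was the same, and with TGF-β2 against PDGF-BB it was 9 and 3. The mixed genes in at least 1 comparison were Iars, Rars, Rars2, Sars, Vars, Wars and Wars2.

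The 3 Vars probes gave 0.57, −0.03 and 0.33 with PDGF-BB against control, and the probe at −0.03 (−0.38 to 0.32) was detected on all 11 arrays. The 4 Wars probes gave 0.27, 0.26, 0.51 and −0.13 with PDGF-BB. Both Tars probes gave positive values with PDGF-BB, 0.26 and 0.36, as did both of Farsb, 0.16 and 0.13, and both of Mars. In Rars2, for the mitochondrial arginine enzyme, the 3 tested probes stayed between −0.03 and 0.06 in the comparisons with control. Probes of 1 gene can lie in different exons or transcripts, and whether that plays a part was not tested.

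**Figure D3:**
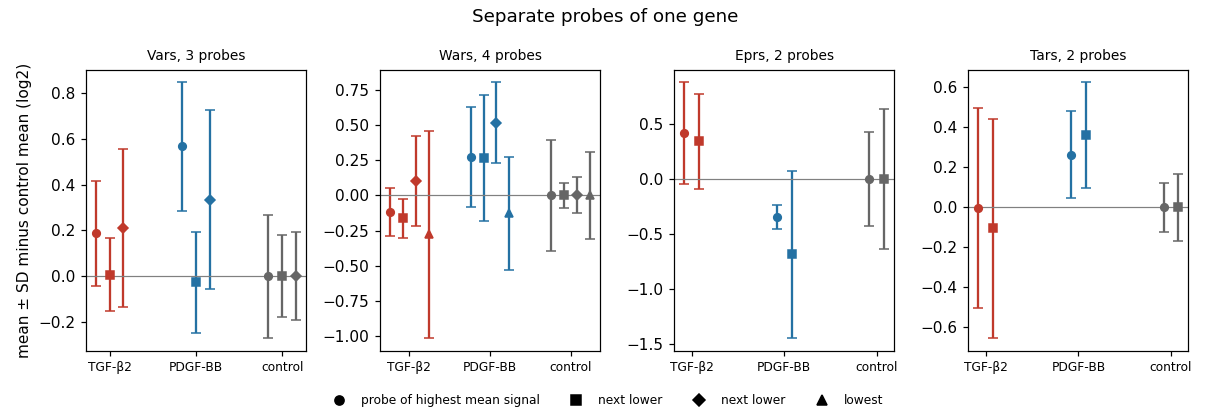
Mean ± SD of each tested probe of Vars, Wars, Eprs and Tars by group, as the log2 difference from that probe's control mean, with 1 marker shape for each probe in order of mean signal. With PDGF-BB the Vars probes lie at 0.57, −0.03 and 0.33, and both Eprs probes lie above 0 with TGF-β2 and below 0 with PDGF-BB.

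The cytosolic set was next followed array by array, as the median over its 17 genes of the difference from each gene's mean over all 11 arrays. It was −0.05, −0.27, 0.10 and −0.09 on the TGF-β2 arrays, 0.16, 0.07 and 0.20 on the PDGF-BB arrays and −0.02, −0.01, −0.05 and −0.07 on the control arrays. The PDGF-BB arrays lay above all control arrays, TGF-β2 array 2 was the lowest of all and TGF-β2 array 3 lay among the PDGF-BB arrays. The SD was 0.15 in the TGF-β2 group, 0.070 in the PDGF-BB group and 0.028 in the control. The mitochondrial set ranged from −0.0085 to 0.036 on the TGF-β2 arrays, from −0.011 to 0.024 on the PDGF-BB arrays and from −0.11 to 0.071 on the control arrays, and the 3 groups overlapped.

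Other lists of genes varied between the same arrays. The median over 24 tested genes of the amino acid response, which ATF4 drives, was −0.20, −0.32, 0.28 and −0.27 on the TGF-β2 arrays, 0.41, −0.25 and 0.22 on the PDGF-BB arrays and 0.13, 0.09, 0.13 and −0.12 on the control arrays. Over 11 endoplasmic reticulum chaperones it was −0.26, −0.30, 0.30 and −0.18 on the TGF-β2 arrays, 0.17, −0.03 and 0.23 on the PDGF-BB arrays and 0.02, 0.07, 0.03 and −0.02 on the control arrays. In both lists, as in the cytosolic synthetase genes, TGF-β2 array 2 was lowest in its group and array 3 highest. PDGF-BB array 2 was the lowest of its group in all 3. The 9 mitochondrial translation factor genes also had TGF-β2 array 2 lowest (−0.23) and array 3 highest (0.12), but PDGF-BB array 2 was their highest (0.14). In the 8 accessory genes of tRNA charging TGF-β2 array 3 was the lowest of its group (−0.13).

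**Figure D4:**
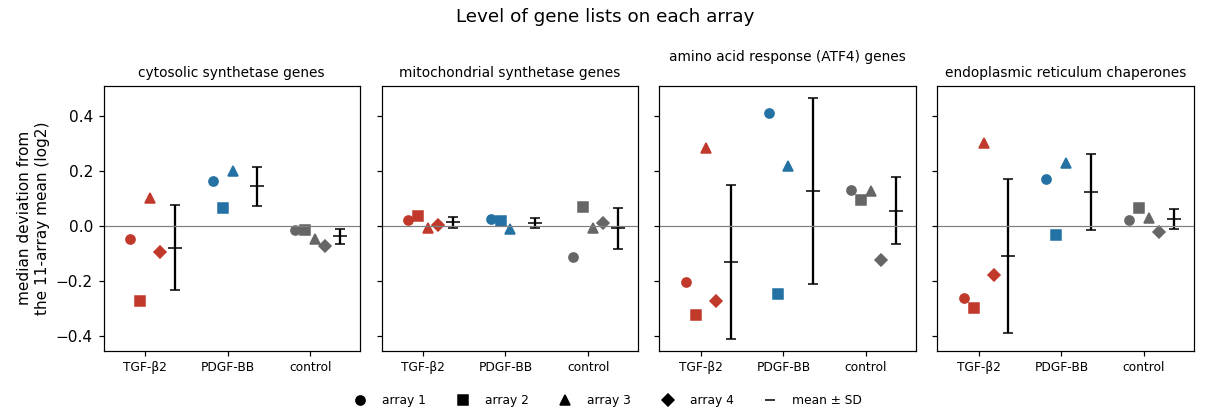
Median over the genes of a list of the log2 difference from each gene's mean over the 11 arrays, for each array of TGF-β2-treated, PDGF-BB-treated and control cells, with the mean ± SD of each group. TGF-β2 array 3 stands above the other TGF-β2 arrays in the cytosolic synthetase, amino acid response and chaperone lists, and the mitochondrial synthetase list stays between −0.11 and 0.071.

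Atf4 itself measured 9.88, 9.84, 10.41 and 9.71 on the TGF-β2 arrays, 10.34, 9.52 and 10.33 on the PDGF-BB arrays and 10.22, 10.13, 10.40 and 10.13 on the control arrays. Hspa5, for the main chaperone of the endoplasmic reticulum, measured 9.27, 9.41, 10.87 and 9.67 on the TGF-β2 arrays, 9.41, 9.93 and 10.72 on the PDGF-BB arrays and 9.77, 9.53, 10.46 and 9.97 on the control arrays. In each group of 4, array 3 was the highest for both genes. The part of these genes in the level of the synthetase genes was not tested.

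By comparison, 4 of the 24 amino acid response genes lay above and 20 below the control with TGF-β2 (median −0.15), and 16 above and 8 below with PDGF-BB (median 0.060). The gene nearest to a call was Fgf21, a secreted hormone and ATF4 target, at −0.62 with TGF-β2 against control (adjusted p = 1.0, limma) and −0.86 against PDGF-BB (adjusted p = 0.755). Of the 11 chaperones, 2 lay above and 9 below the control with TGF-β2, 6 above and 5 below with PDGF-BB, and all 11 lay below with TGF-β2 against PDGF-BB (median −0.15). No gene of either list was called.

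The partners of the synthetases were also examined. The scaffold genes Aimp1, Aimp2 and Eef1e1 had 1 gene above the control and 2 below with either growth factor, while the 7 tested synthetase genes of the complex had 1 above and 6 below with TGF-β2 and 6 above and 1 below with PDGF-BB. The 8 tested accessory genes, which modify or proofread charged tRNAs, had 5 above and 3 below with TGF-β2 and 3 above and 5 below with PDGF-BB. The 7 cytosolic elongation factor genes, whose products bring charged tRNA to the ribosome and move it along, had 2 above and 5 below with TGF-β2 and 5 above and 2 below with PDGF-BB (median 0.12). The 9 mitochondrial translation factor genes had 4 above and 5 below with TGF-β2 and 6 above and 3 below with PDGF-BB. None of these genes was called in any comparison.

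The probes near background were also the least precise. Each tested synthetase probe was read from 19 to 68 beads on an array, and the standard error over beads, as the median over the arrays, was 5.22% of the signal at the median probe. It was 27.9% for Farsa, 25.6% for Hars and 23.4% for Wars2, against 3.75% for Vars, 5.52% for Eprs and 2.79% for Gars. The SD between control arrays was 0.19 on the log2 scale at the median probe, with a range of 0.059 to 0.63.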

How the data were processed

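Per the labels, total RNA of HL-1 cells was amplified, labelled with Cy3 and hybridised to Illumina MouseRef-8 arrays. For each probe and array the authors deposited a background-subtracted signal intensity that was not normalized, a normalized signal intensity, a p-value of detection, and how many beads were read with their standard error. The authors normalized with the cubic spline method of Beadstudio per their methods, and the processing notes name GenomeStudio. Those normalized values were used as an alternative and for the signal threshold of 30.

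Differences were computed from the non-normalized intensities in R 4.3.3 (limma 3.58.1). Its neqc step subtracts background estimated from the p-values of detection, adds 16 to every value, brings the 11 arrays to common quantiles and returns log2 signals, which compresses folds near background. Probes with a detection p under 0.05 on at least 3 arrays were tested in 1 fit of 3 group means, moderated with eBayes. The test was two-sided and adjusted with Benjamini-Hochberg over 12894 probes. The script was tested on simulated data, the arrays with group differences removed and known changes added to some probes. With TGF-β2 against control it called 6% of 1.5-fold, 69.3% of 2-fold and 98.7% of 3-fold changes. Most changes of 1.5-fold thus went uncalled. The changes were added to the normalized log2 signals, so the compression near background had no part in these shares. They do not show how many true changes would be called in dim probes.

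Groups and replicate numbers came from the labels. Same-numbered TGF-β2 and control arrays deviated together (correlations of 0.191, 0.400, 0.504 and 0.371), so the number pairs those groups. It also marks a shared chip and part of the chip. PDGF-BB arrays did not pair with the control by number (−0.138, −0.442 and 0.203), and with the control arrays on the same part of a chip they correlated at −0.138, 0.243 and 0.0533 (control arrays 1, 3 and 4). PDGF-BB array 1 correlated most with array 2 of the other groups, at 0.549 with the control and 0.464 with TGF-β2. PDGF-BB array 2 correlated at 0.243 and 0.340 with their array 3. For PDGF-BB array 3 the values were 0.0533 and 0.0293 with their array 4, and 0.203 and 0.328 with their array 3. Whether the PDGF-BB arrays pair in another order than by number was not tested. Chip and position on the chip were also fitted as blocks. Within-pair differences were added after the data were seen.

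Gene names came from the platform annotation, updated through RefSeq. In each comparison the 3 cytosolic and 3 mitochondrial genes of lowest unadjusted p were named with every array, besides Atf4 and Hspa5, genes whose probes differed in direction, and examples of other lists. Probes that lay wholly to 1 side, Fgf21 and the printed promoters were chosen after their values were seen. The synthetase genes and all other lists were chosen with earlier results of these data known. Lists were described by counts and medians and not tested. Another 26 settings were tried.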

Additional observations from a re-analysis of the deposited data

Results flagged for a closer look

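In 94 groups of 4 arrays (45 synthetase probes and the 2 list medians, in the TGF-β2 and control groups), 3 held an array far from the other 3 by Dixon's ratio of gap to range. Chance flags about 1 in 20 such groups. The Iars probe ILMN_2810047 measured 10.48 on TGF-β2 array 3, where the other TGF-β2 arrays lay between 9.53 and 9.63. The Lars probe ILMN_2899591, for leucyl-tRNA synthetase, measured 9.16 on control array 3, with the other control arrays between 8.83 and 8.87. The Wars probe ILMN_2445477 measured 5.16 on TGF-β2 array 2, with the other TGF-β2 arrays between 6.51 and 6.76. The PDGF-BB group has 3 arrays and was not examined in this way.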

How the results depend on the processing

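No setting called a synthetase probe, and PDGF-BB against control without control array 4 called 1 probe of the whole array. The lowest adjusted p of a synthetase probe in any setting was 0.783 with TGF-β2 against control, 0.454 with PDGF-BB against control and 0.234 with TGF-β2 against PDGF-BB. The number at an unadjusted p under 0.05 ranged from 0 to 3, 0 to 7 and 2 to 12 in that order. With a replicate block, Farsa was bound to stay at 0.61 with TGF-β2 against control, since every number holds both groups equally. No call changed. PDGF-BB numbers do not pair, so for PDGF-BB against control the chip and position blocks apply, with cytosolic medians of 0.087 and 0.071. A block for another order of the PDGF-BB arrays was not fitted.

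The median of the cytosolic genes with PDGF-BB against control was 0.17 with array weights, 0.23 in chip 1 and 0.0096 with median scaling. With TGF-β2 against PDGF-BB it was −0.40 in chip 1 and −0.059 in chip 2. The median of the mitochondrial genes with TGF-β2 against control was 0.050 in chip 1 and −0.10 with median scaling. With PDGF-BB against control it was −0.13 with median scaling, and with TGF-β2 against PDGF-BB it was −0.063 in chip 2 and 0.024 with median scaling. The replicate block on 2 groups gave 0.0037, the same value as leaving out TGF-β2 array 4, which has no PDGF-BB array of its number. Since PDGF-BB numbers do not pair, that block is not a separate check. The cause of these shifts was not tested.

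Leaving out 1 array at a time, the cytosolic median ranged from −0.14 to 0.012 with TGF-β2, 0.10 to 0.20 with PDGF-BB and −0.30 to −0.084 between the growth factors. The mitochondrial median ranged from −0.053 to 0.032, −0.044 to 0.034 and −0.057 to 0.0037.

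Single genes changed sign in 8 cases and kept it in 449. Iars with TGF-β2 was 0.12 in chip 2, and Aars2 with PDGF-BB was 0.19 in chip 2 and −0.49 to 0.030 leaving out 1 array. Between the growth factors, Pars2 was 0.085 in chip 1 and −0.51 to 0.054 leaving out 1 array, and Aars2 was −0.047 with array weights, −0.27 in chip 2 and −0.14 to 0.38 leaving out 1 array.

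Farsa, Hars, Wars2 and Aars2 lie near background, where bead error is large.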
